A study of Mus musculus with 7 samples.

Results

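The core machinery that copies chromosomal DNA was represented by 43 genes, listed by name for their function. The list was drawn up with earlier results of these data known. They encode the origin recognition complex, the licensing factors, the MCM helicase and its activators, the sliding clamp and its loader, the single-strand DNA binding protein RPA, the replicative polymerases and the enzymes that finish Okazaki fragments. All 43 were measured among the 18193 genes that had at least 1 probe set matched to them alone on the Affymetrix Mouse430_2 array. Each gene was read from its brightest such probe set, and the members had 93 probe sets in all.

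The samples were erythroblasts, the nucleated precursors of red cells, sorted from mouse bone marrow as positive for TER-119 (an erythroid surface antigen) and CD71 (the transferrin receptor). Marrow came from C57BL/6 Ly5.1 hosts aged 11 to 15 weeks that had received 1050 rad of gamma irradiation and fetal liver cells of donor embryos at E13.5 to E16.5. The donors were littermates of B6-Sod2tm1Cje heterozygous matings, and carried either no intact copy (Sod2-/-) or 2 intact copies (Sod2+/+) of the gene for the mitochondrial superoxide dismutase. Both groups shared the irradiation, the transplant and the sort, and hosts were female. There were 4 Sod2+/+ arrays (17, 29, 33 and 37) and 3 Sod2-/- arrays (31, 35 and 39), and the remaining Sod2-/- array of the design was not analysed here. The deletion is absent from whatever blood cells a host kept after irradiation, and the sources used here give no time from transplant to harvest. The labels call the samples biological replicates but do not say how many hosts each came from.

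Values are log2 intensities after RMA, a method that corrects each array's background, normalizes the arrays and combines the probes of each set into a single value. The deposited arrays did not share a single distribution, since their 90th percentile was 7.31 to 7.57 in Sod2+/+ and 7.11 to 7.28 in Sod2-/-. Differences are Sod2-/- minus Sod2+/+ on that log2 scale, with the standard error of limma, and p-values are adjusted over all 45037 probe sets. The array medians lay between 4.45 and 4.54. Erythroblast markers were present on all arrays, with a mean over 15 of them of 11.05 to 11.10 in Sod2+/+ and of 11.06 to 11.25 in Sod2-/-. Arrays differed in other ways. Array Sod2-/- 39 carried macrophage transcripts, with a mean over 12 macrophage markers of 6.06 against 4.69 to 4.87 in Sod2+/+ and 4.81 and 4.77 in Sod2-/- 31 and 35. Chip lots and genotype overlapped almost completely, since all Sod2+/+ arrays and Sod2-/- 35 came from one lot and Sod2-/- 31 and 39 from another. Each of the 2 fluidics stations held arrays of both genotypes. The 4 Sod2 probe sets overlapped between the groups. The brightest read 8.32, 8.62, 8.20 and 8.59 in arrays labelled Sod2+/+ and 8.47, 8.09 and 8.61 in arrays labelled Sod2-/- (difference -0.043, SE 0.15, adjusted p = 0.913), and the other 3 had adjusted p from 0.540 to 0.768. The paper also reports no Sod2 difference on the arrays. It puts this down to a nonfunctional mRNA that is still made and read by probe sets beyond the deletion. Which of them lie in the deleted part of the gene was not examined here, so the genotypes are those of the labels.

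Replication starts when the origin recognition complex binds DNA and, with Cdc6 and Cdt1, loads the MCM helicase as an inactive ring. The ring is activated in S phase when Cdc45 and the GINS complex join it. Polymerase alpha with primase then lays short primers, which polymerases epsilon and delta extend on the leading and lagging strands while PCNA, placed by replication factor C, holds them on the template. Erythroblasts go through several rapid divisions before they leave the cell cycle and lose the nucleus, and many replication genes are classical targets of E2F, the transcription factor family that acts at the entry into S phase.

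Promoter sequence was available for 35 of the 43 members in RefSeq (GRCm38.p6), as windows of 300 bases from 250 before to 50 after each annotated start. The E2F letters searched on both strands were TTTCCCGC, TTTGGCGC, TTTCGCGC and TTTGCCGC. Matches to TTTGGCGC on one strand can overlap matches to TTTCGCGC on the other. At least 1 match was found in 2.26% of all 32851 windows and in 15 of the 43 member windows (34.9%), which belonged to 15 of the 35 members. The 3 windows below are shown for the member with the largest difference between genotypes (Pold2), the called clamp loader subunit with matches in its window (Rfc3) and the member whose difference was nearest to 0 (Orc1). Capitals mark E2F letters, on either strand. They are Pold2 at chr11:5878207-5878506 (minus strand, the first of 2 annotated windows), Rfc3 at chr5:151651159-151651458 (minus strand) and Orc1 at chr4:108579204-108579503 (plus strand).
Pold2: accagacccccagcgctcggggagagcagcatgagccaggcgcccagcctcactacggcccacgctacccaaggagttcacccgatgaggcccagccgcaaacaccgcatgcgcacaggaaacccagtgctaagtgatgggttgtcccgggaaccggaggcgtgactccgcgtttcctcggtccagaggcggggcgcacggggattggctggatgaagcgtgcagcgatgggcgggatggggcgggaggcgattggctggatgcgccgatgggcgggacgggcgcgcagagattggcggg
Rfc3: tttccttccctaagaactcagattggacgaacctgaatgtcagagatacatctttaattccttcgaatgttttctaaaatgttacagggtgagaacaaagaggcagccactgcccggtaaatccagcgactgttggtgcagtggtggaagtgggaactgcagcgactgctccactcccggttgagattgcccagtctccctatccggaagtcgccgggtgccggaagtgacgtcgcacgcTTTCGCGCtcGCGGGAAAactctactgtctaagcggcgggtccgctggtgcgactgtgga
Orc1: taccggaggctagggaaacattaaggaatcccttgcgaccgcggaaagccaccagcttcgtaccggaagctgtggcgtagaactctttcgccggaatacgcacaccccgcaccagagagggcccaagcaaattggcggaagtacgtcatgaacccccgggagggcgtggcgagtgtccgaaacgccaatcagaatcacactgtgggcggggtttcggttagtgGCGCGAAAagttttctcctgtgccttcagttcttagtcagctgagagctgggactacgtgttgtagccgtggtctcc
The Rfc3 window held 2 matches around the annotated start, the Orc1 window held 1, and the Pold2 window held 0. Of the members with a window, 2 of the 10 that passed the test described next and 13 of the 25 that did not had a match. CCAAT, the other element searched on both strands, was in 37.4% of all windows and in 24 of the 43 member windows (55.8%), including the first Pold2 window, which held 3. A match is a stretch of letters and not a measured binding site.

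Replication transcripts were lower in Sod2-/- than in Sod2+/+ erythroblasts in nearly every member. The log2 difference was below 0 in 42 of 43 members, against 45.8% of all genes, and its median over the members was -0.52, against 0.016 over all genes. Most genes are dimmer than the members, and among genes with a mean log2 value from 6 to 8, from 8 to 10 and above 10, which hold 42 of the members, 71.3%, 79.1% and 60.8% lay below 0. After quantile normalization of the deposited values the median over the members was -0.33. At an adjusted p under 0.05, 11 members were lower in Sod2-/- (4.47% of all genes were) and 0 were higher (0.412% of all genes). With at least 1.5-fold added, 7 members were lower, against 2.8% of all genes. All Sod2-/- arrays lay below all Sod2+/+ arrays in 34 members (14.8% of all genes, and 28.7% to 37.8% of genes as bright as most members), and the opposite was seen in 0 members (7.19% of all genes). At an unadjusted p under 0.05, 37 members were lower (18.4% of all genes) and 0 were higher (6.68% of all genes). In sorted bulk cells, fewer cells in S phase and less RNA per cell cannot be told apart. In the plot of changes by role, 11 further members are at least 1.5-fold lower without passing the test, and 11 of the 43 have an adjusted p between 0.05 and 0.1.

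**Figure D1:**
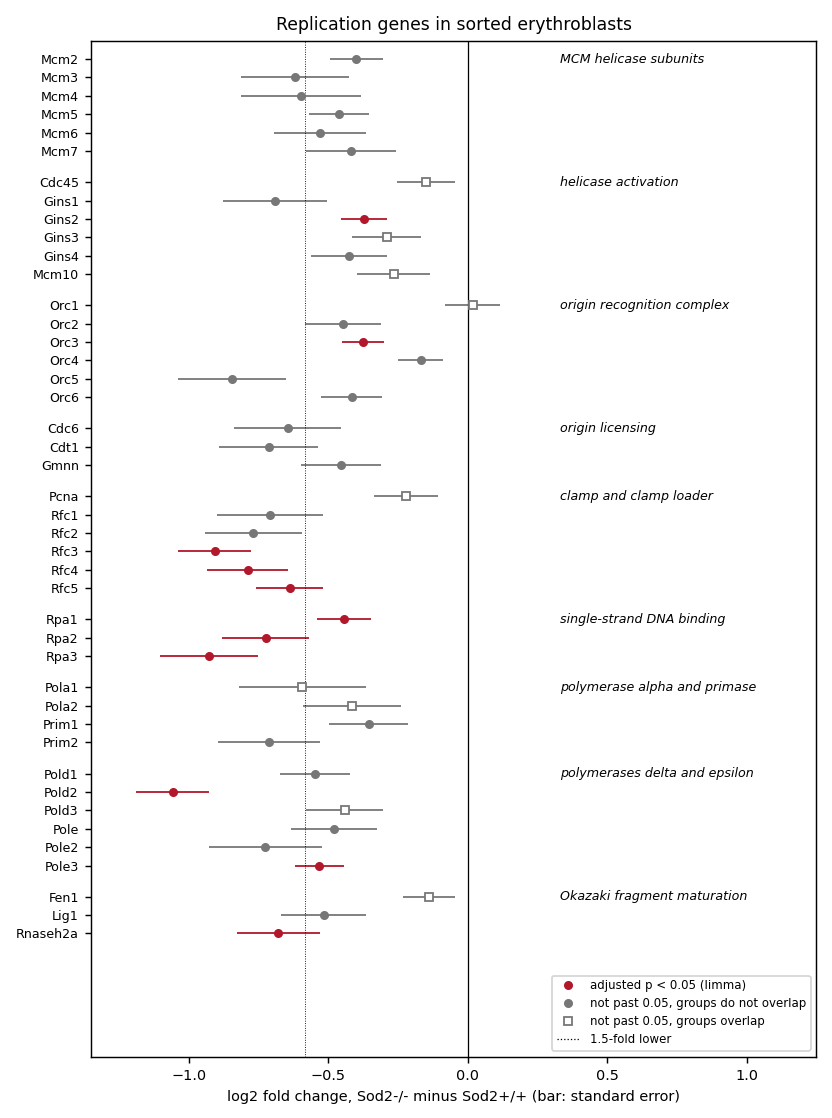
Log2 fold change (Sod2-/- minus Sod2+/+, x axis) of the 43 replication genes (y axis, in their functional groups), with bars for the standard error. Red points passed an adjusted p of 0.05 in limma, open squares are genes whose arrays overlap between genotypes, and the dotted line is at 1.5-fold lower. Points lie left of 0 for 42 genes, and Orc1 lies at 0.017.

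The replicative polymerases held the largest difference. Pold2, the accessory subunit that joins the catalytic core of polymerase delta to the rest of the enzyme, read 7.44, 7.64, 7.24 and 7.47 in Sod2+/+ arrays 17, 29, 33 and 37, and 6.60, 6.45 and 6.11 in Sod2-/- arrays 31, 35 and 39. The groups were separated by more than the range within either. It fell by 1.06 on the log2 scale (SE 0.13, adjusted p = 0.0121), a level 2.08-fold higher in Sod2+/+. Pole3, a histone-fold subunit of polymerase epsilon, also fell, from 8.35 ± 0.12 (SD, n = 4) to 7.82 ± 0.10 (SD, n = 3). Its difference was -0.53 (SE 0.09, adjusted p = 0.0240). The groups of its second probe set overlapped, with a difference of -0.31 (adjusted p = 0.238). The other members of this group did not pass the test, with differences of -0.55 for Pold1 (adjusted p = 0.0546) and -0.48 for Pole (adjusted p = 0.128), the catalytic subunits, of -0.73 for Pole2 (adjusted p = 0.0915) and of -0.44 for Pold3 (adjusted p = 0.121). Of the 6 genes, 5 had groups that did not overlap, Pold3 being the exception. The polymerase delta and epsilon genes had a median difference of -0.54, with 2 of 6 called.

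All 3 subunits of RPA, the protein that coats single-stranded DNA at the fork, fell. Rpa3, the smallest subunit, read 7.78, 8.21, 7.85 and 8.08 in Sod2+/+ and 7.27, 7.27 and 6.61 in Sod2-/-. Its difference was -0.93 (SE 0.18, adjusted p = 0.0330). Rpa2, the subunit phosphorylated during replication stress, read 8.07, 8.59, 8.10 and 8.16 in Sod2+/+ and 7.78, 7.45 and 7.28 in Sod2-/-, a difference of -0.73 (SE 0.16, adjusted p = 0.0449). The largest subunit, Rpa1, fell from 11.31 ± 0.12 (SD, n = 4) to 10.87 ± 0.16 (SD, n = 3), by 0.45 on the log2 scale (SE 0.10, adjusted p = 0.0471). In these probe sets no Sod2-/- array reached a Sod2+/+ array. The groups of the second Rpa2 probe set overlapped, with a difference of -0.32 (adjusted p = 0.41) and 7.89 in Sod2-/- 35. Those of the second Rpa1 probe set did not, with a difference of -0.59 (adjusted p = 0.0631).

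The clamp loader, replication factor C, opens the PCNA ring and closes it around DNA, and 3 of its 5 subunits fell. Rfc3 read 6.71, 6.71, 6.59 and 6.58 in Sod2+/+ and 5.98, 5.85 and 5.40 in Sod2-/-, a difference of -0.91 (SE 0.13, adjusted p = 0.0185). The Sod2+/+ arrays of Rfc3 were close together, with an SD of 0.08, and the Sod2-/- arrays spread over an SD of 0.31. Rfc4 read 8.52, 8.81, 8.64 and 8.74 in Sod2+/+ and 8.12, 8.03 and 7.51 in Sod2-/-, a difference of -0.79 (SE 0.15, adjusted p = 0.0304). Rfc5 read 8.49, 8.53, 8.21 and 8.38 in Sod2+/+ and 8.02, 7.72 and 7.56 in Sod2-/-, a difference of -0.64 (SE 0.12, adjusted p = 0.0331). The groups of these 3 genes did not overlap in these probe sets. Those of the second Rfc3 probe set did, with a difference of -0.34 (adjusted p = 0.338). Rfc1, the large subunit, at -0.71 (adjusted p = 0.0824) and Rfc2 at -0.77 (adjusted p = 0.0533) missed the threshold, also with groups that did not overlap.

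Pcna, the clamp itself and the usual marker of replicating cells, read 12.30, 12.44, 12.27 and 12.23 in Sod2+/+ and 12.24, 12.23 and 11.81 in Sod2-/-. Arrays Sod2-/- 31 and 35 lay at the level of the lower Sod2+/+ arrays, and Sod2-/- 39 lay clearly below them. The difference was -0.22 (SE 0.12, adjusted p = 0.336). Whether the loader subunits and the clamp differ from each other in their change was not tested.

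**Figure D2:**
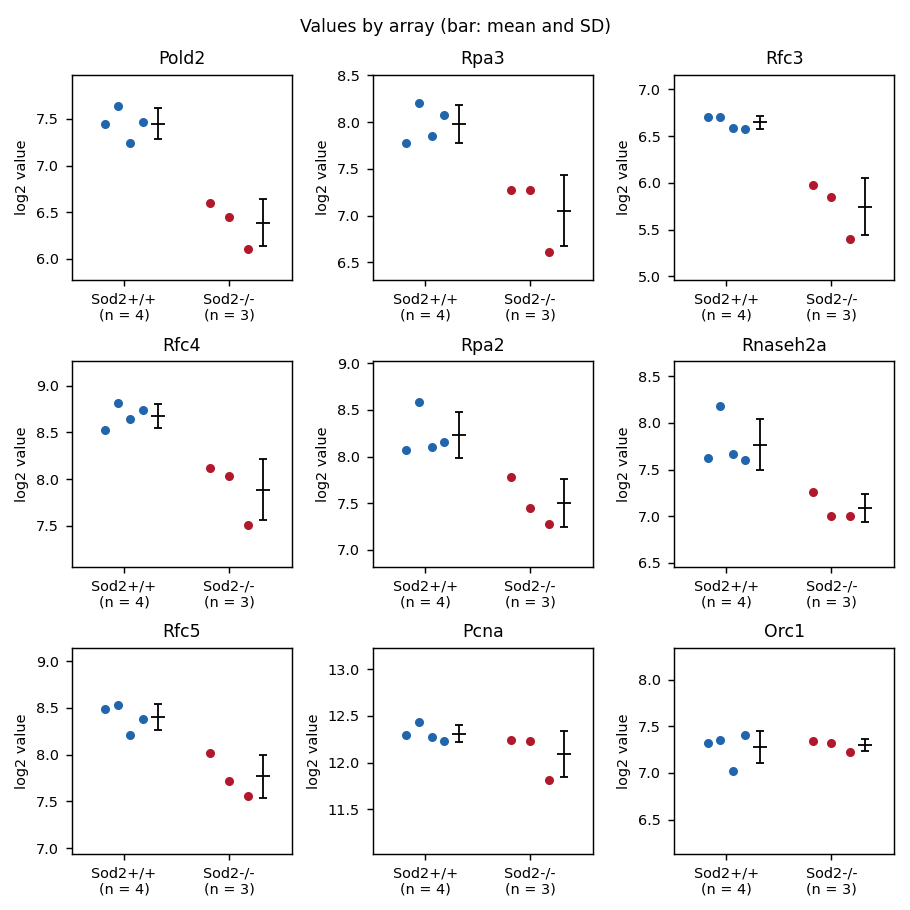
Log2 intensity (y axis, each panel spanning the same 2.2 log2 units) by genotype (x axis) for the 7 genes that fell at least 1.5-fold past an adjusted p of 0.05, and for Pcna and Orc1. Points are arrays in the order 17, 29, 33, 37 and 31, 35, 39, and the bar is the mean with its SD. The groups of the first 7 panels do not overlap, and those of Pcna and Orc1 do.

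Among the enzymes that finish Okazaki fragments, Rnaseh2a, the catalytic subunit of the ribonuclease that cuts RNA out of DNA, fell. It read 7.62, 8.18, 7.67 and 7.60 in Sod2+/+ and 7.26, 7.00 and 7.00 in Sod2-/-, a difference of -0.68 (SE 0.15, adjusted p = 0.0470). Array Sod2+/+ 29 lay well above the other Sod2+/+ arrays in this gene. Lig1, the ligase that seals the fragments, differed by -0.52 (adjusted p = 0.103) with no overlap of the groups. Fen1, the nuclease that trims their flaps, read 11.67, 11.73, 11.72 and 11.53 in Sod2+/+ and 11.68, 11.55 and 11.34 in Sod2-/-, which overlap, with a difference of -0.14 (SE 0.09, adjusted p = 0.461). That value comes from a probe set of the kind that shares probes with other transcripts (suffix _x_at), and the second Fen1 probe set gave -0.53 (adjusted p = 0.0886).

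The origin recognition complex was uneven. Orc3 fell from 7.03 ± 0.07 (SD, n = 4) to 6.65 ± 0.10 (SD, n = 3), by 0.38 on the log2 scale (SE 0.08, adjusted p = 0.0377). Its second brightest probe set, dim at a mean log2 value of 4.42, lay at 0.092. Orc5 had the largest difference of the complex, with 7.38, 7.89, 7.34 and 7.50 in Sod2+/+ and 7.02, 6.79 and 6.24 in Sod2-/-. Its difference of -0.85 (SE 0.19) missed the threshold at an adjusted p of 0.0539. Orc1, the ATPase subunit that starts the assembly of the complex, was the only member above 0, though at -0.023 after centring each array on its median. It read 7.32, 7.35, 7.02 and 7.41 in Sod2+/+ and 7.34, 7.32 and 7.22 in Sod2-/-, so that all Sod2-/- arrays lay within the Sod2+/+ range and the difference was 0.017 (SE 0.10, adjusted p = 0.952). The 3 other subunits, Orc2, Orc4 and Orc6, lay between -0.45 and -0.17 with groups that did not overlap.

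The licensing factors were lower in every Sod2-/- array than in any Sod2+/+ array, but 0 of 3 passed the limma test, against 3 at an unadjusted p under 0.05. Cdt1, which brings the helicase to the origin, read 10.78, 11.06, 10.76 and 10.70 in Sod2+/+ and 10.48, 10.20 and 9.66 in Sod2-/-, a difference of -0.71 (SE 0.18, adjusted p = 0.0685). The difference was -0.65 for Cdc6, the loading ATPase (adjusted p = 0.106), and -0.46 for Gmnn, which encodes geminin, the inhibitor of Cdt1 (adjusted p = 0.122). Loading factors and the inhibitor of reloading lay on the same side of 0.

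The MCM genes, which encode the 6 subunits of the helicase ring, had differences of -0.62 to -0.40, and 0 of 6 passed the test although the groups did not overlap in any of them and all 6 had an unadjusted p under 0.05. Mcm3, the largest, read 9.55, 9.82, 9.44 and 9.58 in Sod2+/+ and 9.23, 9.26 and 8.44 in Sod2-/-, a difference of -0.62 (SE 0.19, adjusted p = 0.121). Array Sod2-/- 39 lay far below the other Sod2-/- arrays in Mcm3. Mcm5 and Mcm2 were nearest to the threshold, at -0.46 (adjusted p = 0.0562) and -0.40 (adjusted p = 0.0576). The median over the 6 genes was -0.50. For the partners that turn the ring into an active helicase, Gins2 fell, from 7.85 ± 0.12 (SD, n = 4) to 7.48 ± 0.05 (SD, n = 3). It fell by 0.37 on the log2 scale (SE 0.08, adjusted p = 0.0483). The groups of its second probe set overlapped, with a difference of -0.64 (adjusted p = 0.125). Gins1 read 8.28, 8.65, 8.20 and 8.22 in Sod2+/+ and 8.03, 7.69 and 7.22 in Sod2-/-, a difference of -0.69 (SE 0.19, adjusted p = 0.0827). Cdc45, Gins3 and Mcm10 had overlapping groups and differences of -0.15, -0.29 and -0.27, and the first turned to 0.085 after quantile normalization. The 4 GINS genes, whose products form a single complex, all had differences below 0.

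For the primer-making enzyme, Prim2, the regulatory primase subunit, read 8.44, 8.85, 8.40 and 8.61 in Sod2+/+ and 8.19, 7.98 and 7.42 in Sod2-/-. The difference was -0.71 (SE 0.18, adjusted p = 0.0734) with no overlap of the groups. Prim1, the catalytic primase, differed by -0.36, Pola2 by -0.42 and Pola1, the polymerase alpha catalytic subunit, by -0.59. The groups of Pola1 and of Pola2 overlapped. Of the 4 genes, 0 passed the limma test and 4 had an unadjusted p under 0.05. With the second brightest probe set in place of the brightest, the difference was above 0 for Pola1 (0.15) and Pola2 (0.076). Those probe sets were dim, with mean log2 values of 3.79 and 4.61 against 7.72 and 7.32 for the brightest.

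The Sod2-/- arrays were not equally low. In 34 of 43 members they ran from Sod2-/- 31, the highest, through 35 to 39, the lowest. Array 39 was the lowest of the 3 in 38 members. The median over the members of the deviation from the Sod2+/+ mean was -0.28 in Sod2-/- 31, -0.48 in Sod2-/- 35 and -0.80 in Sod2-/- 39, while over all genes the medians of the 3 arrays lay between -0.019 and 0.027. Below the Sod2+/+ mean lay 41 members in array 31, 42 in array 35 and 43 in array 39. The same count was 29 in Sod2+/+ 17, 3 in Sod2+/+ 29, 40 in Sod2+/+ 33 and 27 in Sod2+/+ 37. A count near 41 was thus also seen in a Sod2+/+ array. Among the Sod2+/+ arrays, number 29 was the highest of all 7 arrays in 38 members, with a median deviation of 0.21, against -0.097 to -0.043 in the others. The map by array shows this gradient within the Sod2-/- columns.

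**Figure D3:**
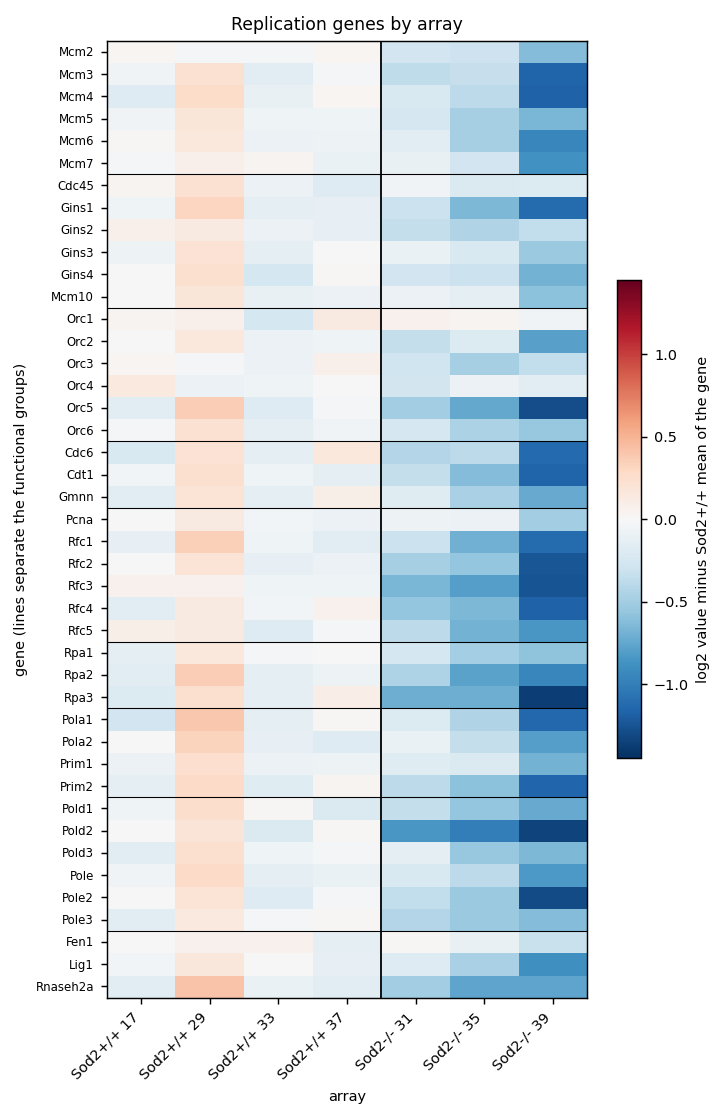
Log2 value minus the gene's Sod2+/+ mean (colour) for the 43 replication genes (rows, with lines between functional groups) in the 7 arrays (columns, a line between genotypes). The Sod2-/- columns darken from 31 to 39, and the column of Sod2+/+ 29 is red nearly throughout, the highest of all arrays in 38 genes.

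The count of called members rested on single arrays in both directions. Without Sod2-/- 39, the array with macrophage transcripts, it was 3 and the median difference was -0.35. Without Sod2-/- 31 it was 17 and the median was -0.61. It was 1 without Sod2+/+ 29, 1 without Sod2+/+ 37, 1 without Sod2-/- 35, 5 without Sod2+/+ 17 and 6 without Sod2+/+ 33. The share of all genes called in these fits was not counted, so whether the shifts are particular to the members was not tested. Pold2 alone passed the test without each of the 7 arrays in turn (adjusted p from 0.0190 to 0.0461). The other 10 missed the threshold in at least 3 of the 7 fits, and their highest adjusted p lay between 0.0556 (Rfc3, which missed it without Sod2+/+ 29, Sod2+/+ 37 or Sod2-/- 35) and 0.160 (Gins2, which missed it in all 7, as did Rnaseh2a). With both the highest Sod2+/+ array (29) and the lowest Sod2-/- array (39) left out, a choice made after their values were seen, 42 members stayed below 0 with a median of -0.30, and Pold2 was the only member called. The direction held within each fluidics station, with a median of -0.33 at the station of Sod2+/+ 17 and 29 and Sod2-/- 31 and of -0.58 at the other, and 42 members lay below 0 at each. The first station held a single Sod2-/- array, assumed there to vary like the others, and limma called 0 members at either station, with 10 and 31 lower at an unadjusted p under 0.05. Within the chip lot that held both genotypes (4 Sod2+/+ arrays and Sod2-/- 35) the median was -0.48 and 2 members, Rfc3 and Pold2, passed, with the lone Sod2-/- array assumed to vary like the others. With chip lot as a block, limma called 0 members, 17 had an unadjusted p under 0.05 in that direction, the median was -0.48 and Pold2 had an adjusted p of 0.0562. The other lot held Sod2-/- arrays alone, so the blocked difference was again Sod2-/- 35 minus the Sod2+/+ mean. Arrays Sod2-/- 31 and 39 bore on its spread only, and the median of -0.48 is the same number in both fits. Chip lot and genotype can hardly be told apart in this design.

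The difference was also read from the other probe sets of the members. Of the 93 probe sets, 81 lay below 0 (40.6% of all probe sets did), 57 had groups that did not overlap in the lower direction (10.2% of all probe sets) and 13 were called lower (2.83% of all probe sets), with 0 called higher (0.566% of all probe sets). Of the 50 that were not the brightest of their gene, 39 lay below 0 and 2 were called lower, for Rfc4 (-1.08, adjusted p = 0.0361) and Rfc2 (-0.71, adjusted p = 0.0441). Of the 11 above 0, 9 had a mean log2 value under 5.1, the exceptions being those of Cdc45 (6.45) and Orc1 (7.22). How many of the 39 below 0 were as dim was not counted. The second Orc1 probe set lay at 0.27 (adjusted p = 0.147), on the same side as the first. In 21 of the 31 members with several probe sets, all of them lay below 0. The brightest probe set of 7 members (Mcm2, Mcm3, Mcm5, Mcm7, Gins2, Pold1 and Fen1) carries a suffix, _s_at or _x_at, that marks probes shared with other transcripts.

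Genes of the members' brightness were also lower in Sod2-/- in their median. Among genes with a mean log2 value from 6 to 8, the median difference was -0.21 and 12.2% were called lower, against -0.59 and 7 of 17 for the members there. In that range 33.2% of all genes and 12 of the 17 members had groups that did not overlap in the lower direction. From 8 to 10 the values were -0.29 and 194 of 1435 for all genes, and -0.57 and 3 of 16 for the members, with 37.8% of all genes and 14 of the 16 members not overlapping. Above 10 they were -0.12 and 6.38% for all genes, and -0.45 and 1 of 9 for the members, with 28.7% and 7 of the 9 not overlapping. Set against the genes within a 0.5-wide bin of brightness, 39 members lay below the bin's median and 29 below its lower quartile. After quantile normalization, which removes most of the shift of the mid-bright genes, the member medians in the same 3 ranges were -0.35, -0.35 and -0.33, beside -0.020, -0.058 and 0.004 for all genes, and 2 members, Rfc3 and Pold2, were called lower (2.78% of all genes) and 0 higher (1.43%).

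**Figure D4:**
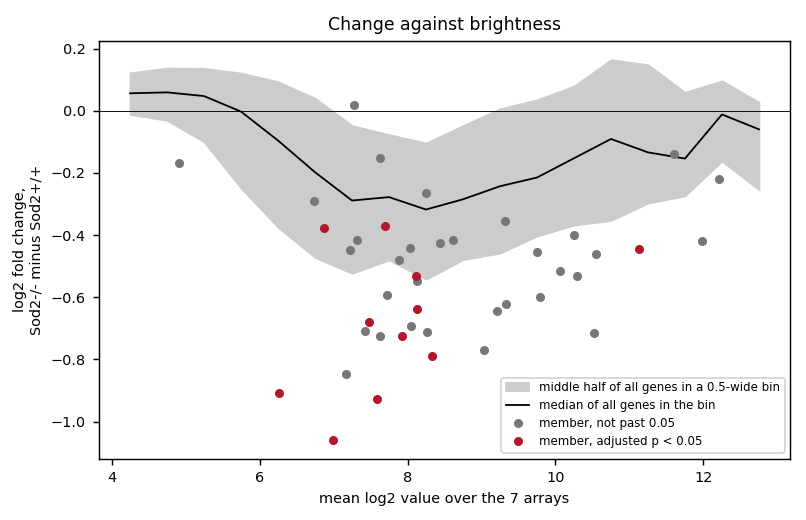
Log2 fold change (Sod2-/- minus Sod2+/+, y axis) against mean log2 value over the 7 arrays (x axis). The line and band are the median and the middle quartiles of all genes in bins of 0.5, points are the 43 replication genes, and red points passed an adjusted p of 0.05. Most points lie below the band or in its lower part, 29 of them under its lower edge.

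Other genes of DNA replication lay mostly below 0, as did most genes of like brightness. Of 67 measured genes outside the core set, which control origins, protect forks, assemble chromatin, supply nucleotides or copy damaged DNA, 57 lay below 0, 6 were called lower, 0 were called higher and the median difference was -0.29. Over all genes 4.47% were called lower, and 12.2% of those with a mean log2 value from 6 to 8. Within the 0.5-wide bins, which cover 66 of the 67, 51 lay below the bin's median and 24 below its lower quartile. Dscc1, a subunit of the alternative clamp loader that acts in sister chromatid cohesion, fell by 1.39 on the log2 scale (SE 0.30, adjusted p = 0.0454). It read 6.12, 6.88, 6.32 and 7.21 in Sod2+/+ and 5.77, 5.23 and 4.75 in Sod2-/-, a wide spread in both groups, and its second brightest probe set lay at 0.13. Chtf8, a subunit of the same loader, fell by 0.47 (SE 0.11, adjusted p = 0.0485). The 9 fork protection genes had a median of -0.45.

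Dut, the enzyme that keeps uracil out of DNA by hydrolysing dUTP, read 8.30, 8.70, 8.20 and 8.52 in Sod2+/+ and 7.63, 7.63 and 7.05 in Sod2-/-. It fell by 1.00 on the log2 scale (SE 0.17, adjusted p = 0.0258), while its second brightest probe set lay at 0.064. The other 9 measured genes of nucleotide supply were not called, and the 10 had a median of -0.14. Rnaseh2c, a partner of Rnaseh2a in the same ribonuclease, fell by 0.65 (SE 0.13, adjusted p = 0.0393) among 12 further fork enzymes with a median of -0.17. In chromatin assembly, Hat1, the acetyltransferase of new histone H4, fell by 0.76 (SE 0.16, adjusted p = 0.0422) and Asf1a, a histone chaperone, by 0.42 (SE 0.09, adjusted p = 0.0419), with a median of -0.58 over 9 genes. Limma called 0 of the 14 genes of origin firing, with 7 lower at an unadjusted p under 0.05, and Topbp1, an activator of origins and of the checkpoint, lay at -0.61 (adjusted p = 0.120). The 13 repair and bypass polymerases had a median of -0.10, 0 calls and 1 gene lower at an unadjusted p under 0.05, with Rev3l at -0.35 (adjusted p = 0.304) and Mad2l2 at -0.35 (adjusted p = 0.269). Each of the 6 called genes missed the threshold without at least 3 of the 7 arrays in turn.

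Genes that act before and after S phase were measured beside these. Of 27 kinases, cyclins, E2F and Rb genes of the G1/S transition, 2 fell, with a list median of -0.26. These values are near those of genes of like brightness, with 15 of the 27 below the median of their bin and 4 below its lower quartile. Cdk4, a kinase that starts the passage from G1, read 8.33, 8.30, 8.25 and 8.31 in Sod2+/+ and 7.46, 7.00 and 7.03 in Sod2-/-, a difference of -1.14 (SE 0.11, adjusted p = 0.00543). Its relative Cdk6 fell by 0.50 (SE 0.11, adjusted p = 0.0447), a call lost without any 1 of the 7 arrays (adjusted p from 0.0534 to 0.142). Of 24 mitosis and spindle genes, 0 were called by limma, the median was -0.19 and 8 had an unadjusted p under 0.05 in the lower direction, with Aurkb, a kinase of chromosome segregation, at -0.52 (adjusted p = 0.163). In their bins of brightness, 10 of the 24 lay below the median. In array Sod2-/- 31 the mean deviation of the mitosis genes from the Sod2+/+ mean was 0.043, while that of the replication members was -0.30. In arrays 35 and 39 the mitosis genes were at -0.25 and -0.30 and the members at -0.46 and -0.82. Whether the lists differ was not tested.

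Markers of other cells moved with the genotype, and their part in the replication values was not tested. Over the 17 B cell markers the mean log2 value was 6.24 to 6.39 in Sod2+/+ and 5.49 to 5.72 in Sod2-/-, and 8 of them fell, among them Cd79a with a difference of -1.78 (adjusted p = 0.00284). Over the 14 neutrophil markers the mean was 10.26 to 10.69 in Sod2+/+ and 10.28, 9.02 and 9.61 in Sod2-/- 31, 35 and 39, with 0 called by limma and 12 lower at an unadjusted p under 0.05. Array 31, whose neutrophil mean was inside the Sod2+/+ range, had the lowest B cell mean of the 7 arrays (5.49). Its eosinophil and mast cell markers had a mean deviation of -0.62 from the Sod2+/+ mean. That array had 41 of 43 replication members below the Sod2+/+ mean. Array Sod2+/+ 33 had 40 below that mean. Of 7 eosinophil and mast cell markers 3 fell, among them Epx with a difference of -1.87 (adjusted p = 0.0222), a call lost without any 1 of Sod2+/+ 29 and 37 and Sod2-/- 35 and 39 (adjusted p up to 0.0667).

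The macrophage markers were high in the array where replication members were lowest. C1qc, a complement component made by macrophages, read between 3.75 and 4.68 on 6 arrays and 8.33 in Sod2-/- 39. The mean over the 12 markers was 1.29 above the Sod2+/+ mean in that array and 0.042 and -0.006 from it in Sod2-/- 31 and 35. Late erythroblast markers, 11 measured, had a median difference of 0.17 with 0 called by limma (1 lower and 4 higher at an unadjusted p under 0.05), and their means were 11.37 to 11.51 in Sod2+/+ and 11.52 to 11.59 in Sod2-/-. The 10 markers of immature erythroid cells and progenitors had a median difference of -0.035, with 6 below 0 and 4 above. Myb, a transcription factor of progenitors, fell by 1.24 (adjusted p = 0.0303), the only call there. That call was lost without any 1 of Sod2+/+ 29, 33 and 37 and Sod2-/- 31 and 35 (adjusted p up to 0.0835). RNA degradation was read on the arrays as the log2 ratio of 3′ to 5′ probe sets, which rises as RNA degrades. The ratio was 0.18 lower for Gapdh in Sod2-/- (exact permutation test, two-sided p = 0.0571, smallest possible 0.0286 with 4 against 3 arrays). For beta-actin the ratio was 0.022 lower (p = 0.8, exact permutation test).

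**Figure D5:**
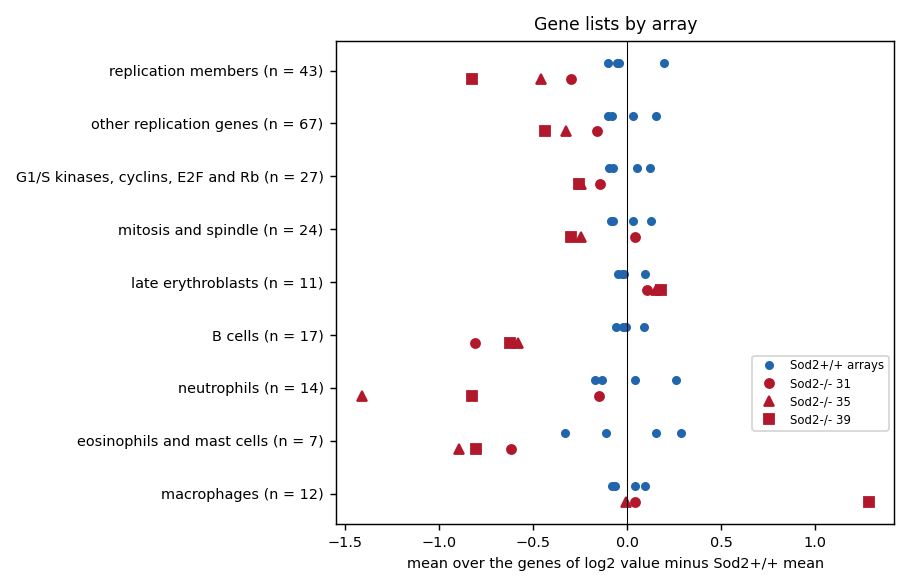
Mean over each list's genes of the log2 value minus the gene's Sod2+/+ mean (x axis) for 9 gene lists (y axis). Blue points are the Sod2+/+ arrays and red symbols the 3 Sod2-/- arrays. The replication members lie at -0.30, -0.46 and -0.82 in Sod2-/- 31, 35 and 39, and the macrophage markers stand out in array 39.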

How the data were processed

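RNA of sorted TER-119+ CD71+ erythroblasts (4 Sod2+/+ and 3 Sod2-/- samples) was hybridised to 7 Affymetrix arrays. Per the labels, arrays were scaled in GCOS 1.3.037 and the deposited log2 values were made by the authors with RMA in GeneSifter. The sources used here do not say whether the Sod2-/- array left out was normalized together with these. The table's scale was log2 by its values. Of 45101 probe sets, 64 controls were left out. Symbols came from GEO's platform annotation, which gave 34945 probe sets 1 gene, 932 several and 9160 none. No filter or further normalization was applied, and the number of arrays limits the precision.

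Genotypes were compared with lmFit and eBayes (limma 3.58.1, R 4.3.3) on all 45037 probe sets with Benjamini-Hochberg adjustment, without covariates. The study's methods name a t-test, which is given among the alternatives. The limma p-values set each difference against the spread between these samples, with the variance drawn in part from all probe sets. The limma step was tested on simulated data. The array headers gave each array's chip lot and fluidics station.

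Genes with values per array are members past 0.05 and at least 1.5-fold, the largest change in each functional group, Pcna, and the 2 members highest in Sod2-/- relative to Sod2+/+. Called genes of the other lists are given up to 3 a list, or the largest where there were none. The members and lists were chosen with earlier results of these data known. Alternatives were 15 other settings and each of the 7 arrays left out, plus 1 added after seeing the data.

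T and NK cell markers (8 measured, median 0.01) and megakaryocyte markers (7 measured, median 0.00) had 0 calls.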

Additional observations from a re-analysis of the deposited data

Results flagged for a closer look

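In 6 of 76 gene and genotype groups of 4 arrays that were examined, 1 array lay apart from the rest by more than Dixon's critical value for the gap divided by the range, and chance gives this in about 1 in 20 groups. In 5 replication members the array was Sod2+/+ 29, as the highest value. The ratio was 0.94 for Mcm5 (10.92 in that array), 0.832 for Rpa2 (8.59), 0.964 for Prim1 (9.72), 0.838 for Pole (8.37) and 0.877 for Rnaseh2a (8.18). The other gene was Mad2l2, a subunit of a bypass polymerase, where Sod2+/+ 37 read 5.05 and the ratio was 0.94. The genes share their arrays, so these are not independent events. Only Sod2+/+ had 4 arrays, so all groups examined were Sod2+/+ and no Sod2-/- array was screened in this way.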

How the results depend on the processing

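The members stayed below 0 in 37 (second brightest probe set) to 43 of 43 genes under every setting run, with 0 called higher. In the former setting the 12 members with 1 probe set kept that one. The count called lower was unstable. Of the member values under the alternatives, 779 kept direction and call status, 164 lost the call, 25 gained it and 9 changed sign. Only values of the 11 called members could lose a call, and they lost it more often than they kept it. Most of the 779 belong to members that were not called and stayed so. Against 11 members called lower (7 with 1.5-fold) and 6 other replication genes, the counts were 0, 0 and 0 by the methods' t-test with equal or unequal variances, blocking on chip lot, and inside each fluidics station. By the methods' t-test with equal variances 29 members and 2465 of 18193 genes were lower at an unadjusted p under 0.05. At an adjusted p under 0.05 that test called only 2 of the 18193 genes lower, so its count of 0 is not particular to the members. For the other settings apart from quantile normalization, and for the fits with an array left out, the share over all genes was not counted. The counts were 2, 2 and 3 after quantile normalization, 2, 2 and 0 with an offset of 32 on the linear scale, 21, 14 and 13 with bright probe sets alone (fewer tests), 4, 3 and 3 blocking on fluidics station, 2, 2 and 0 within the chip lot of the Sod2+/+ arrays, and 1, 1 and 0 with Sod2+/+ 29 and Sod2-/- 39 left out. The second brightest probe set gave 6 called members. Only Rfc2 and Rfc4 among them were read from a second probe set, the rest from their only one. Array weights gave 3 other genes. Beyond what fewer tests or arrays do by construction, the cause was not tested. Leaving out each array in turn gave 1 to 17 members, 1 to 13 with 1.5-fold and 0 to 10 other genes.

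The members' median of -0.52 ran from -0.61 to -0.35 with arrays left out in turn and was -0.30 with both left out. That of the other genes, -0.29, ran from -0.34 to -0.25, and was -0.15 after quantile normalization and -0.11 with the second brightest probe set. Signs turned for Cdc45 (0.085 after quantile normalization, 0.046 with the second brightest probe set), and with the latter for Mcm10 (0.080), Orc3 (0.092), Pola1 (0.15), Pola2 (0.076), Dscc1 (0.13), Dut (0.064) and Rev3l (0.16). The second brightest probe sets of Mcm10, Orc3, Pola1 and Pola2 had mean log2 values of 4.9, 4.4, 3.8 and 4.6, and that of Cdc45 had 6.5. Orc1 was at -0.023 after median centring and ran from -0.067 (without Sod2+/+ 33) to 0.062 (without Sod2+/+ 37), with -0.005 without Sod2-/- 31. No paired analysis was possible because the replicate numbers are not shared between the genotypes. The methods describe pairs of both genotypes sorted side by side on several sorters, but no source used here says which arrays those were.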
